A study of Mus musculus with 10 samples.

Results

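Cholesterol handling in the injured newborn brain was followed through 33 genes chosen by name, which cover cholesterol synthesis, its control, uptake, transport and storage, and efflux. All 33 were found among the 55471 identifiers of the gene table and all 33 passed the filter on low counts. The pups were wild-type Swiss Webster mice of neonatal day 5 by the series text and the labels, and all 10 had a hypoxic-ischemic brain injury, so both groups carry the injury. In 5 pups (libraries 1 to 5) the injury was left without treatment, and 5 others (libraries 6 to 10) were given allopregnanolone, a steroid made in the body from progesterone that strengthens currents through GABA-A receptors. Each library was made from total RNA of a whole brain, and the labels give every pup its own number.

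Cholesterol does not cross the blood-brain barrier in useful amounts, so the brain makes its own, mainly in astrocytes and, while myelin is being laid down, in oligodendrocytes. Synthesis runs from acetyl-CoA through mevalonate to squalene and then through a series of sterols, and the transcription factor SREBP2 (gene Srebf2) switches its enzymes on when sterols in the endoplasmic reticulum fall. Excess sterol leaves cells through ABC transporters that load it onto apolipoprotein E, or is hydroxylated in neurons by CYP46A1, and the oxysterol receptors LXR alpha and beta (Nr1h3 and Nr1h2) drive the export genes. Some genes of the pathway are not among the 33.

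The promoters show what the synthesis genes have in common in sequence, which the choice of genes did not use. RefSeq's windows on GRCm38.p6, reaching from 250 bases before to 50 bases after a transcription start, were at hand for 27 of the 33 genes; Fdps, Fdft1, Sqle, Npc1, Stard4 and Abcg1 had none. The letters CCAAT, the box bound by NF-Y, a partner of the SREBPs, were searched on both strands, where the reverse reads ATTGG. They stood in at least 1 window of 14 of 15 synthesis genes (93.3%), against 41.1% of 27025 genes with a window, and Acat2 was the exception. Of the regulators 4 of 5 held the box, of the genes of uptake, transport and storage 2 of 3, and of the efflux genes 1 of 4, namely Cyp46a1. The core of the sterol regulatory element, searched as TCACNCCAC, matched in 1 member, Hmgcs1, and in 1.44% of all genes. Forms of the element with other letters, or outside these windows, were not searched. The LXR direct repeat, searched with both of its repeats intact, matched in 0 of 27 members and 0.0148% of all genes, which says only that these letters are not in these windows. For 6 genes a stretch of 80 bases upstream of RefSeq's start is shown, with the matched letters in capitals, read along the gene's strand. Hmgcs1 is shown for its sterol element beside an NF-Y box, Mvd, Lss and Cyp46a1 because their RNA passed the test below, and Idi1 and Cyp51 as synthesis genes whose RNA did not.
Hmgcs1 (chr13:119690166-119690245, plus strand): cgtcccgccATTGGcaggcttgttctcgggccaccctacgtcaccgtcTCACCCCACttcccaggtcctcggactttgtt
Mvd (chr8:122443423-122443502, minus strand): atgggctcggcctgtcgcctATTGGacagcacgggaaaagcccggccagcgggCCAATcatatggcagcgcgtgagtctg
Lss (chr10:76531525-76531604, plus strand): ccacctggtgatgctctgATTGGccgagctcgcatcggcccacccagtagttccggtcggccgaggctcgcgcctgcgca
Idi1 (chr13:8885526-8885605, plus strand): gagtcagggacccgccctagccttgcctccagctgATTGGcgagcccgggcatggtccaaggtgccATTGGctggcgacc
Cyp51 (chr5:4104698-4104777, minus strand): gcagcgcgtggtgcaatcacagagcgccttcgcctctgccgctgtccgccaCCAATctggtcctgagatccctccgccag
Cyp46a1 (chr12:108334136-108334215, plus strand): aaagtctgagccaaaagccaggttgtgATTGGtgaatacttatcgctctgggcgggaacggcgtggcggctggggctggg
The stretch of Hmgcs1 ends 106 bases before RefSeq's start and that of Cyp46a1 101 bases before it, and the other stretches end at the base before that start. The gene coordinates of GENCODE, used below, give the same start for Mvd and differ from RefSeq's starts for the other genes shown. By them Idi1 begins at 8885501, so its stretch lies inside the gene. Lss begins at 76531588 and Cyp51 at 4104746, both within their stretches.

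Estimated counts ranged from 18656836 in treated library 7 to 34270723 in treated library 6. Levels are given in CPM, counts scaled to a common library size with TMM factors, which adjust each library's size and do not make the libraries' composition equal. Markers of the tissue were present throughout, with Snap25 of neurons at 1069 CPM and Slc1a2 of astrocytes at 1634 CPM on average in untreated libraries. Between the groups 11 of 12 myelin genes were higher, with a summed level of 1067 to 1960 CPM without and 3067 to 4133 CPM with treatment. Astrocyte markers were higher in 5 of 10 cases (3002 to 3689 against 3676 to 4145 CPM) and mature neuron markers in 3 of 7 (5035 to 5964 against 5890 to 7017 CPM). Of the astrocyte markers Gfap and Aqp4 had negative log2 fold changes (-0.86 and -0.33) and did not pass. All 6 young neuron markers were lower (2131 to 2368 against 1731 to 1791 CPM), and microglial markers summed to 266 to 360 and 271 to 291 CPM. None of the markers of these 5 lists was at 0 in any library. Midbrain markers were higher in 6 of 7 cases, at 13.7 to 30.8 CPM in sum without treatment and at 118, 95 and 69.0 CPM in treated libraries 6, 7 and 9, while treated libraries 8 and 10 had 20.0 and 20.4 CPM. Of these, En1 was at 0 in untreated library 3, and Pitx3 did not pass the filter on low counts. Endothelial markers were higher in 4 of 6 cases (167 to 184 against 229 to 272 CPM), and all 6 proliferation markers were lower (64.0 to 105 against 45.7 to 53.0 CPM). Of the choroid plexus markers 0 of 6 passed, and of the red cell markers 1 of 6 was higher. In whole-tissue RNA a change in the number of cells of a type and a change in the RNA per cell cannot be told apart. The part of cell composition in the results below was not tested. The names of untreated libraries 1, 2 and 3 carry another prefix than the other 7, whose meaning the labels do not give, and each called member is therefore also given from the 7 libraries of the shared prefix (2 untreated, 5 treated).

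The comparison asked whether allopregnanolone changed the RNA of these genes in the injured brain. Of the 33 genes 5 rose and 1 fell at an adjusted p under 0.05 (edgeR's quasi-likelihood test, two-sided, Benjamini-Hochberg adjustment over 17101 genes), and 27 did not pass. Mvd and Lss of synthesis, Npc1 of lysosomal transport and Abcg1 and Cyp46a1 of efflux and turnover rose, and Sqle of synthesis fell. The 6 calls are 18.2% of the members, against 11.3% of all genes tested, 6.61% being higher and 4.65% lower. The members were chosen with earlier results of these data known, so neither this share nor those of the branches below tests for an excess. All the changes were small, the largest being 1.30-fold. Treated and untreated libraries did not overlap for 3 higher members and 1 lower one, against 5.44% and 4.2% of all genes (9.64% in either direction). The median log2 fold change was 0.08 over the members and -0.0046 over all genes tested. With libraries scaled to their totals alone, which moved the median of all genes to -0.06, the members' median was 0.02 and 3 rose while 3 fell. With upper-quartile scaling or a filter of 100 counts 5 rose and 3 fell, and with DESeq2 6 rose and 3 fell.

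**Figure D1:**
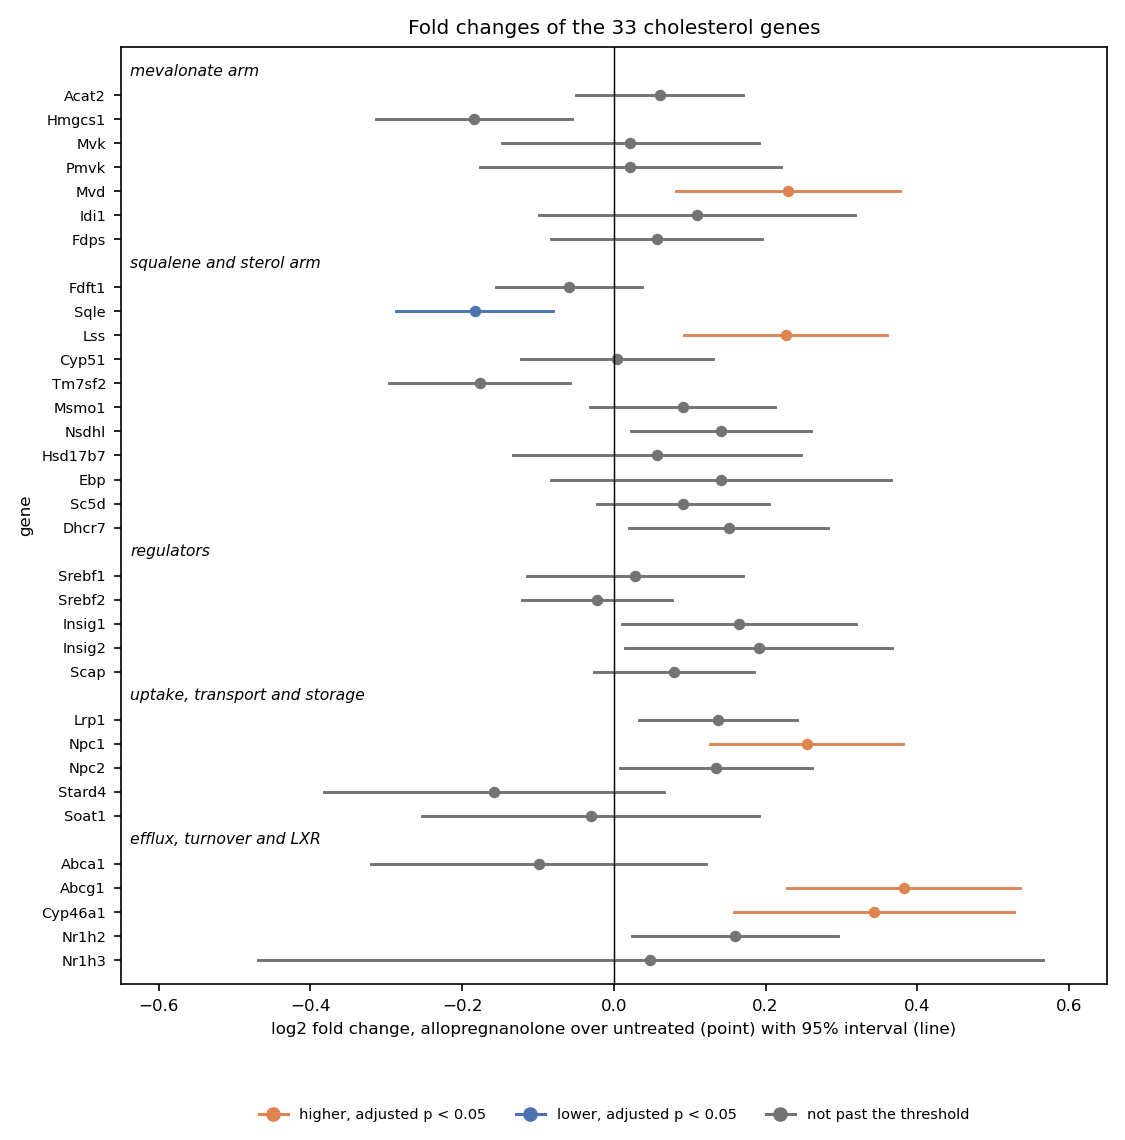
Log2 fold change of each of the 33 genes (horizontal axis, allopregnanolone over untreated, 5 libraries each), with its 95% interval as a line, grouped by branch. Orange and blue mark genes past an adjusted p of 0.05, of which 5 were higher and 1 lower, and Abcg1 had the largest value at 0.38.

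The 7 genes of the mevalonate arm, which turns acetyl-CoA into farnesyl pyrophosphate, included 1 that rose and 6 that did not pass. Mvd, the decarboxylase that makes isopentenyl pyrophosphate (ENSMUSG00000006517, chromosome 8, 122433601 to 122443422 on GRCm38), stood at 25.8, 32.7, 29.2, 26.3 and 30.4 CPM in untreated libraries 1 to 5 and at 32.8, 33.7, 36.3, 32.8 and 33.9 CPM in treated libraries 6 to 10. Every treated library lay above every untreated one, though untreated library 2 came within 0.1 CPM of treated library 6. The group means were 28.9 ± 2.88 and 33.9 ± 1.42 CPM (SD, n = 5 each), a log2 fold change of 0.23 (SE 0.07, edgeR adjusted p = 0.0459). Mvd lost the call in 14 of 21 alternative analyses, among them leaving out any of 8 libraries singly, with its value between 0.14 and 0.28 throughout, and from the 7 libraries of the shared prefix the log2 fold change was 0.25 (edgeR adjusted p = 0.188).

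Hmgcs1, the cytosolic HMG-CoA synthase at the head of the mevalonate arm, was the most abundant member per length, at 74.9 CPM per kb of merged exon in untreated libraries. Its levels were 341, 357, 343, 368 and 310 CPM without and 280, 283, 321, 326 and 304 CPM with treatment. Treated libraries 8 and 9 reached above untreated library 5, and the other 3 treated libraries lay below every untreated one. The log2 fold change was -0.18 (SE 0.06, edgeR adjusted p = 0.0644), which did not pass here and did in 5 of 21 alternatives, with adjusted p from 0.0266 to 0.999 over all of them. Part of the exons of Hmgcs1 (12.1%) lies opposite an antisense gene, Gm48342. Log2 fold changes of the other 5 were 0.06 for the thiolase Acat2, 0.02 for mevalonate kinase Mvk and phosphomevalonate kinase Pmvk, 0.11 for the isomerase Idi1 and 0.06 for farnesyl pyrophosphate synthase Fdps. Acat2, Fdps and Idi1, like Fdft1 of the next arm, have near-identical copies in the genome (Acat3 matches Acat2 at 97.7% over 1477 bases), so the split of their reads is uncertain. Exon overlaps larger than that of Hmgcs1 were those of Fdps with Gm43738 (26.7%, same strand) and Fdft1 with Ctsb (18.3%, opposite strand). The regulator Scap had 13.2% opposite 5830462I19Rik.

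In the arm from squalene to cholesterol 1 of 11 genes rose, 1 fell and 9 did not pass. Sqle, squalene epoxidase and the first oxygen-requiring step (ENSMUSG00000022351, chromosome 15, 59315077 to 59331192), measured 98.7, 108, 113, 103 and 101 CPM without and 88.9, 94.8, 95.3, 91.0 and 91.1 CPM with treatment. The 5 treated libraries all lay below the 5 untreated ones. Means were 105 ± 5.67 and 92.2 ± 2.74 CPM (SD, n = 5 each), 1.14-fold lower with a log2 fold change of -0.18 (SE 0.05, edgeR adjusted p = 0.0275). The call was lost in 8 of 21 alternatives, including without untreated library 2 or 3 or treated library 9 or 10, and the 7 libraries of the shared prefix gave -0.15 (edgeR adjusted p = 0.283).

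Lss, lanosterol synthase, which closes the sterol rings in the step after Sqle (ENSMUSG00000033105, chromosome 10, 76531588 to 76557138), went the opposite way. It was at 51.1, 55.6, 59.6, 53.3 and 51.7 CPM without and 59.6, 63.3, 69.4, 67.2 and 58.0 CPM with treatment. The groups overlapped, since untreated library 3 lay above treated library 10 and level with treated library 6. The rise was from 54.3 ± 3.46 to 63.5 ± 4.86 CPM (SD, n = 5 each), a log2 fold change of 0.23 (SE 0.06, edgeR adjusted p = 0.0334). Lss lost the call in 11 of 21 alternatives, with library totals alone and without untreated library 1, 4 or 5 or treated library 7, 8 or 9 among them, and stood at 0.27 in the 7 libraries of the shared prefix (edgeR adjusted p = 0.167).

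The other 9 genes of the sterol arm lay between -0.18 and 0.15 on the log2 fold scale. Tm7sf2, a sterol C14 reductase, had the lowest value at -0.18 (SE 0.06, edgeR adjusted p = 0.0559) and passed in 5 of 21 alternatives, and 12.1% of its exons are shared with Vps51 on the same strand. Dhcr7, which reduces 7-dehydrocholesterol in the last step to cholesterol, had 0.15 (SE 0.06, edgeR adjusted p = 0.123). Its levels were 69.3, 77.7, 74.3, 64.6 and 81.2 CPM without and 84.7, 79.5, 79.7, 84.2 and 79.4 CPM with treatment, so that untreated library 5 reached into the treated range. The call was gained without that library (edgeR adjusted p = 0.0493). Nsdhl and Ebp, a dehydrogenase and an isomerase of the sterol ring, both had 0.14, and Msmo1 and Sc5d, an oxidase and a desaturase, both 0.09. Cyp51, the lanosterol demethylase, stood at 80.5 ± 3.09 and 80.8 ± 6.83 CPM (SD, n = 5 each), and squalene synthase Fdft1 and Hsd17b7 had -0.06 and 0.06.

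**Figure D2:**
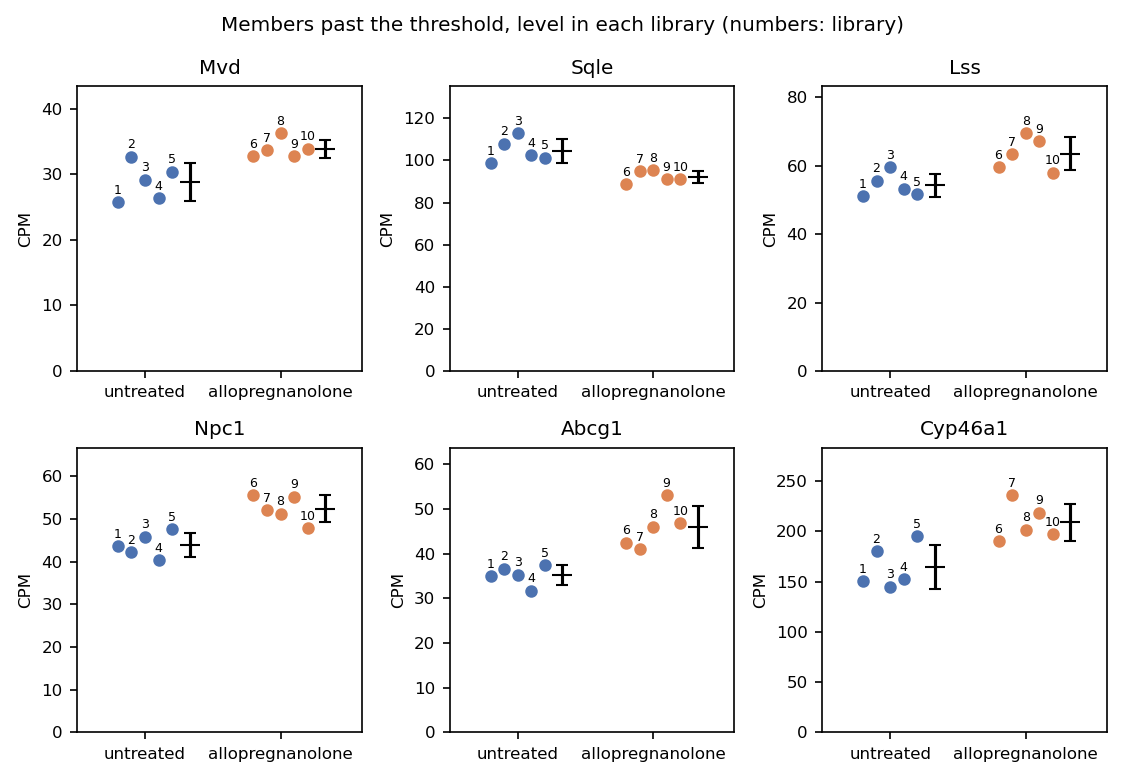
CPM of the 6 genes past the threshold in each library (vertical axes from 0, numbers beside points are library numbers), with group means and SDs as bars. Mvd, Npc1 and Abcg1 are higher and Sqle is lower in all treated libraries, while Lss and Cyp46a1 overlap between the groups.

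Summed over the 18 synthesis genes, the groups overlapped over most of their range. The sum was 1202 ± 36.6 CPM without and 1187 ± 48.1 CPM with treatment (SD, n = 5 each), with ranges of 1163 to 1247 and 1144 to 1242 CPM, and Hmgcs1 made up the largest single share. The 95% intervals of the 18 fold changes, each taken alone, reached at the widest from 0.805-fold (Hmgcs1) to 1.30-fold (Mvd). The median over the 18 genes was 1.04-fold, and 14 of them (77.8%) had a log2 fold change above 0, against 49.2% of all genes tested. With libraries scaled to their totals alone 10 of the 18 were above 0. Their median log2 fold change was then 0.0012, and that of all genes -0.0637. Over the 12 myelin genes the median was 2.28-fold. Of the 18 genes 3 passed (16.7%), against 11.3% of all genes tested. The SEs of their log2 fold changes ran from 0.04 to 0.10. On simulated counts for all 17101 genes, of every depth, the test found 29.9%, 74.6% and 71.2% of genes changed 1.25-fold, 1.5-fold and 2-fold. The simulation changed 67, 67 and 66 genes at these folds, while 1926 genes were called in the data. The adjustment of p-values is stricter when fewer genes change, so these rates may lie below those of the test on the data. The rate for these 18 genes alone was not measured.

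**Figure D3:**
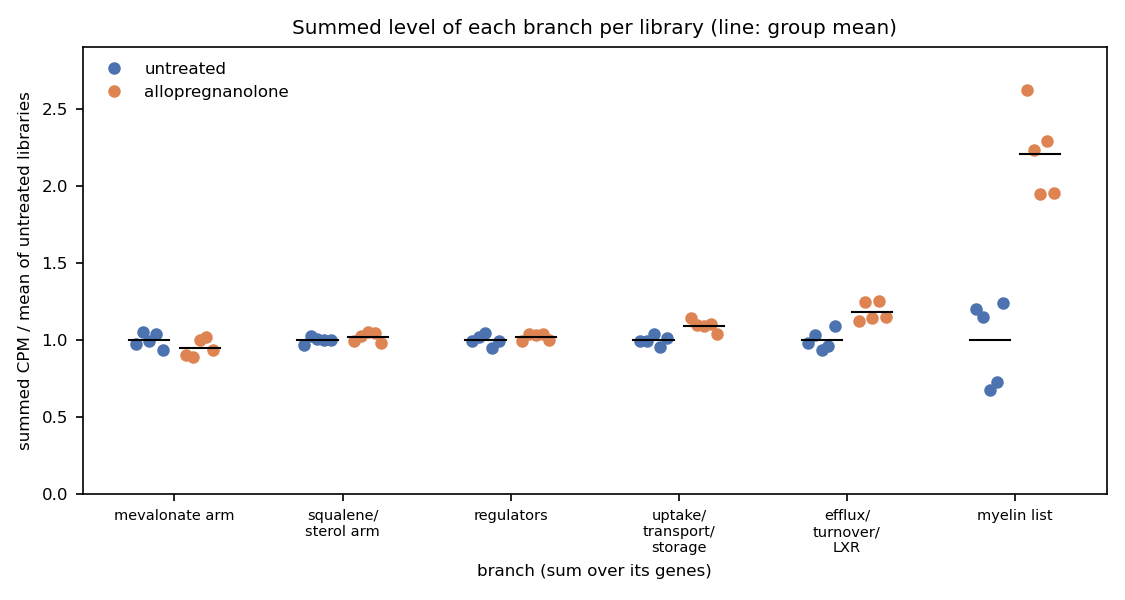
Summed CPM over the genes of each branch, divided by the mean of the untreated libraries (vertical axis), 1 point per library and a line for the group mean. The synthesis arms and the regulators lie near 1 in both groups, and the myelin list averages 2.21 in treated libraries. The branch of efflux, turnover and LXR averages 1.18, and Cyp46a1 made up the largest share of its sum. Cyp46a1 held 165 of 312 CPM without and 209 of 369 CPM with treatment. Abca1 of that branch was lower on average, at 57.2 and 53.4 CPM.

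The order of the libraries within each group was counted over the synthesis genes as a description, with no test. Among the treated libraries, library 9 was highest or second for 12 of 18 genes and library 8 for 11, against 6, 4 and 3 genes for libraries 6, 7 and 10. Untreated library 2 was highest or second for 12 genes and library 4 for 10, while untreated library 1 was lowest for 8. Other libraries were mixed, untreated library 3 being highest for 3 genes and lowest for 5, and treated library 7 highest or second for 4 and lowest for 4. Idi1 had the widest deviation from a group mean, at 59.5 and 40.4 CPM in untreated libraries 2 and 3 and at 59.1 and 46.6 CPM in treated libraries 9 and 10. In myelin markers treated libraries 8 and 9 summed to 3067 and 3611 CPM.

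**Figure D4:**
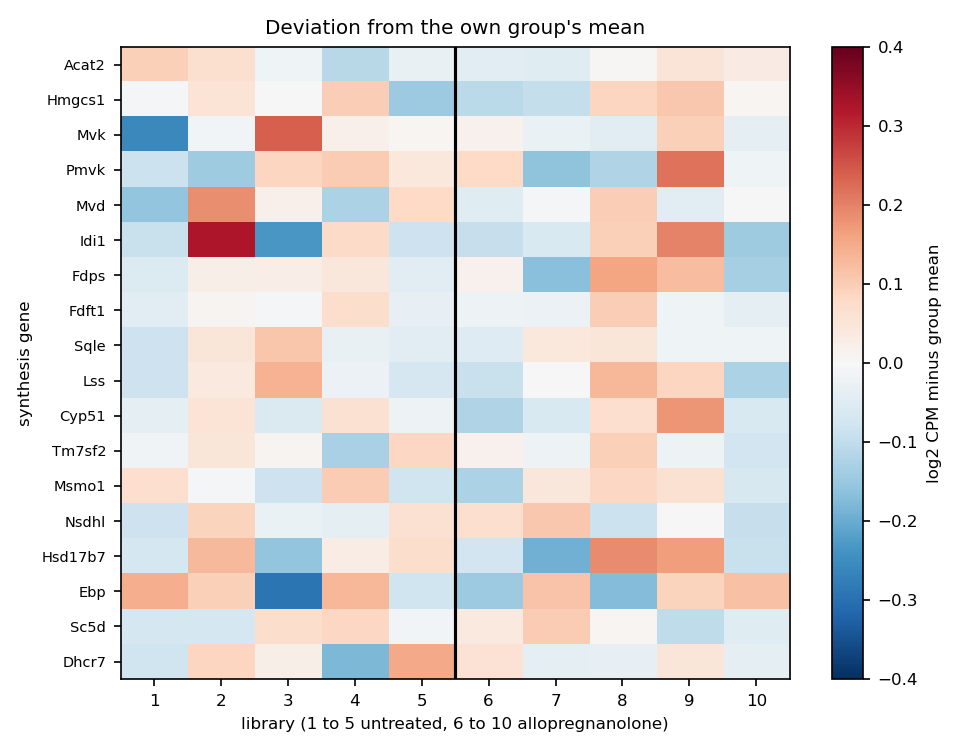
Difference of each library's log2 CPM from the mean of its own group (colour) for the 18 synthesis genes, with untreated libraries left and treated libraries right of the line. Treated libraries 8 and 9 were highest or second for 11 and 12 genes and untreated libraries 2 and 4 for 12 and 10.

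Of the 5 regulators none passed, with 0 of 5 called against 11.3% of all genes, and DESeq2 called none. Of the 5, 2 (Insig1 and Insig2) had an unadjusted p under 0.05 in edgeR, as did 4700 of 17101 genes tested. Srebf2, the main switch of cholesterol synthesis, was at 276, 285, 291, 258 and 278 CPM without and 266, 284, 277, 273 and 269 CPM with treatment. All treated values lay inside the untreated range, and the log2 fold change of -0.02 had a 95% interval from -0.12 to 0.08. Srebf1, whose SREBP1c form directs fatty acid synthesis, was at 35.8, 34.7, 41.1, 37.0 and 36.1 CPM without and 41.7, 34.7, 35.9, 40.1 and 35.7 CPM with treatment, with an interval from -0.11 to 0.17. Insig1, a target of SREBP2 that holds its escort in the endoplasmic reticulum, measured 42.7, 47.7, 45.6, 49.8 and 42.7 CPM without and 44.3, 48.9, 54.7, 57.4 and 50.9 CPM with treatment. Treated libraries 8, 9 and 10 lay above all untreated ones, but libraries 6 and 7 did not (0.16, SE 0.07, edgeR adjusted p = 0.154). Its relative Insig2 had a log2 fold change of 0.19 (edgeR adjusted p = 0.148) and the escort Scap 0.08 (edgeR adjusted p = 0.324). RNA of the SREBPs does not report the cleavage that activates them.

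Among the 5 genes of uptake, transport and storage 1 rose and 4 did not pass. Npc1, the membrane protein that moves cholesterol out of lysosomes (ENSMUSG00000024413, chromosome 18, 12189692 to 12236400), was at 43.7, 42.3, 45.9, 40.3 and 47.7 CPM without and 55.7, 52.0, 51.3, 55.2 and 47.9 CPM with treatment. All treated libraries exceeded all untreated ones, with treated library 10 just above untreated library 5. Its means of 44.0 ± 2.88 and 52.4 ± 3.16 CPM (SD, n = 5 each) lay 1.19-fold apart (log2 fold change 0.25, SE 0.06, edgeR adjusted p = 0.0162). Npc1 passed in 17 of 21 alternatives, including every single library left out, and lost the call with the myelin mean (0.12, adjusted p = 0.997, edgeR) and with the midbrain mean as covariate (adjusted p = 0.276, edgeR). The value was 0.25 again in the 7 libraries of the shared prefix, though with an adjusted p = 0.214 in edgeR. The gene Rmc1 overlaps 4.5% of the exons of Npc1 on the opposite strand, and the strand setting of the counting is not known here. Npc2, the soluble partner that hands cholesterol to Npc1 in the lysosome, stood at 48.4 ± 3.72 and 53.1 ± 2.47 CPM (SD, n = 5 each, edgeR adjusted p = 0.155). Lrp1, a large endocytic receptor for apolipoprotein E, was at 479, 482, 509, 452 and 496 CPM without and 558, 536, 529, 534 and 504 CPM with treatment, so that untreated library 3 lay above treated library 10 (log2 fold change 0.14, edgeR adjusted p = 0.0819; 0.0236 with DESeq2). The carrier Stard4 had -0.16 and the sterol esterifying enzyme Soat1 -0.03, with intervals of -0.38 to 0.07 and -0.25 to 0.19.

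The efflux branch held both of the largest changes, 2 of its 5 genes rising and 3 not passing. Abcg1, a transporter that exports sterol to lipoprotein particles (ENSMUSG00000024030, chromosome 17, 31057675 to 31117988), was at 35.0, 36.6, 35.3, 31.8 and 37.4 CPM without and 42.5, 41.1, 46.0, 53.2 and 46.8 CPM with treatment. The groups did not overlap, and treated library 9 was the highest. Means were 35.2 ± 2.18 and 45.9 ± 4.71 CPM (SD, n = 5 each), 1.30-fold higher with a log2 fold change of 0.38 (SE 0.07, edgeR adjusted p = 0.00586). Abcg1 passed in 17 of 21 alternatives, including every single library left out, and had 0.40 in the 7 libraries of the shared prefix (edgeR adjusted p = 0.118).

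Cyp46a1, the neuronal enzyme that turns cholesterol into 24S-hydroxycholesterol for removal from the brain (ENSMUSG00000021259, chromosome 12, 108334381 to 108362234), rose 1.27-fold. It measured 151, 180, 145, 152 and 195 CPM without and 190, 236, 202, 219 and 197 CPM with treatment. Untreated library 5 lay above treated library 6, and the other untreated libraries lay below every treated one. The log2 fold change was 0.34 (SE 0.09, edgeR adjusted p = 0.0226) between means of 165 ± 21.8 and 209 ± 18.4 CPM (SD, n = 5 each). The call was lost in 8 of 21 alternatives, including without untreated library 1, 3 or 4 or treated library 7, and the value was 0.26 in the 7 libraries of the shared prefix (edgeR adjusted p = 0.273). With the myelin mean as a covariate it was 0.02. Untreated libraries 2 and 5 were the highest 2 of their group for Cyp46a1 and for the mature neuron markers (5964 and 5809 CPM). Treated library 7 was the highest of its group for both, with 7017 CPM of those markers. Treated library 9, at 219 CPM of Cyp46a1, had 6107 CPM of those markers. Treated libraries 8 and 10 had more of the markers (6557 and 6391 CPM) and less Cyp46a1. A link between Cyp46a1 and these markers was not tested.

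Abca1, which loads cholesterol onto apolipoproteins and is a target of LXR like Abcg1, did not follow it. Its levels were 68.3, 49.6, 58.6, 63.2 and 46.2 CPM without and 50.7, 47.8, 50.2, 60.7 and 57.6 CPM with treatment, all treated values lying inside the untreated range. The log2 fold change was -0.10 with a 95% interval from -0.32 to 0.12, whose upper end lies below the lower end of the interval of Abcg1 (0.23 to 0.54), but the difference between both genes was not tested. Of the LXR genes, Nr1h2 had 0.16 (SE 0.06, edgeR adjusted p = 0.117) at 53.4 ± 4.09 and 59.6 ± 3.98 CPM (SD, n = 5 each). Nr1h3 was the rarest member, at 1.64 ± 0.421 and 1.69 ± 0.421 CPM (SD, n = 5 each), and its 95% interval from -0.47 to 0.57 leaves room for changes within 0.723-fold and 1.48-fold, the widest such range of the members.

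Per kb of merged exon, the untreated levels of the 33 genes ranged from 0.651 CPM for Nr1h3 to 74.9 CPM for Hmgcs1. Cyp46a1 followed Hmgcs1 at 50.1 CPM per kb, then Srebf2 at 38.7 and Lrp1 at 27.3. The exporters were low, Abca1 at 5.52 and Abcg1 at 4.83 CPM per kb, as was Soat1 at 2.20, which makes cholesteryl esters for storage. Genes of other branches were as low, with Lss at 5.03, Ebp at 4.94 and Hsd17b7 at 3.79 in synthesis. Npc1 was at 3.89, Stard4 at 4.21 and Insig2 at 4.46 CPM per kb. Most synthesis enzymes lay between these ends, such as Fdft1 at 21.5, Sqle at 18.9 and Idi1 at 13.7 CPM per kb.

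A further list of 48 genes of sterol and lipid handling held 8 that rose and 3 that fell (22.9% called, against 11.3% of all genes). This list too was chosen with earlier results of these data known, so its share does not test for an excess. Of the 7 lipoprotein and uptake genes 3 were higher and 2 lower. Apoe, the main lipid carrier of the brain, was at 759, 814, 831, 859 and 821 CPM without and 1054, 940, 968, 1031 and 1003 CPM with treatment, with no overlap. Its log2 fold change was 0.29 (SE 0.05, edgeR adjusted p = 0.00427). The other carrier apolipoprotein, Clu, rose 1.29-fold, and Lcat, which esterifies cholesterol on lipoproteins, 1.44-fold. Both reelin receptors, which also bind Apoe, fell, Lrp8 by 0.32 on the log2 scale from 141 ± 9.62 to 112 ± 6.72 CPM (SD, n = 5 each, edgeR adjusted p = 0.00486) and Vldlr 1.17-fold. Astrocytes are known as the main source of Apoe, and their markers were higher in 5 of 10 cases, with Gfap and Aqp4 below 0 (-0.86 and -0.33 on the log2 scale, not past the threshold). All 6 young neuron markers were lower, by log2 fold changes from -0.86 to -0.27. Dcx, at 143 CPM without and 78.4 CPM with treatment, changed the most of them. The part of these cell types in the changes was not tested.

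Of 10 fatty acid genes that SREBPs also control, 3 rose and 7 did not pass. Acss2, which makes acetyl-CoA from acetate, rose 1.33-fold, the desaturase Scd1 1.19-fold and the lipogenic regulator Thrsp 1.76-fold from 4.90 ± 1.13 to 8.63 ± 1.94 CPM (SD, n = 5 each, edgeR adjusted p = 0.00991). Fatty acid synthase Fasn, at 422 ± 31.1 and 411 ± 14.9 CPM (SD, n = 5 each), and Acaca and Acly did not pass. Among 8 genes of SREBP processing and sterol-regulated degradation, Mbtps2, the protease that makes the second cut of the SREBPs, fell from 35.8 ± 2.32 to 28.4 ± 2.15 CPM (SD, n = 5 each, edgeR adjusted p = 0.00748), with 28.4% of its exons shared with Yy2. Of 7 genes of efflux and oxysterol synthesis Abca2, a sterol transporter abundant in oligodendrocytes, rose 1.27-fold beside a myelin list higher in 11 of 12 genes. None of 9 genes of intracellular sterol transport passed (0 at an unadjusted p under 0.05 in edgeR as well, against 4700 of 17101 genes tested). Of 7 genes that draw on the mevalonate arm, Fntb, a subunit of farnesyltransferase, rose 1.18-fold. Fntb missed the threshold in 12 of 21 alternatives and Vldlr in 11, while the other 9 missed it in 3 or 4. From the 7 libraries of the shared prefix none of the 11 passed (adjusted p from 0.056 to 0.246, edgeR), with log2 fold changes of 0.25 for Apoe, 0.41 for Clu, 0.68 for Lcat, -0.28 for Lrp8, -0.27 for Vldlr, -0.35 for Mbtps2, 0.38 for Acss2, 0.27 for Scd1, 0.61 for Thrsp, 0.32 for Abca2 and 0.27 for Fntb.

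**Figure D5:**
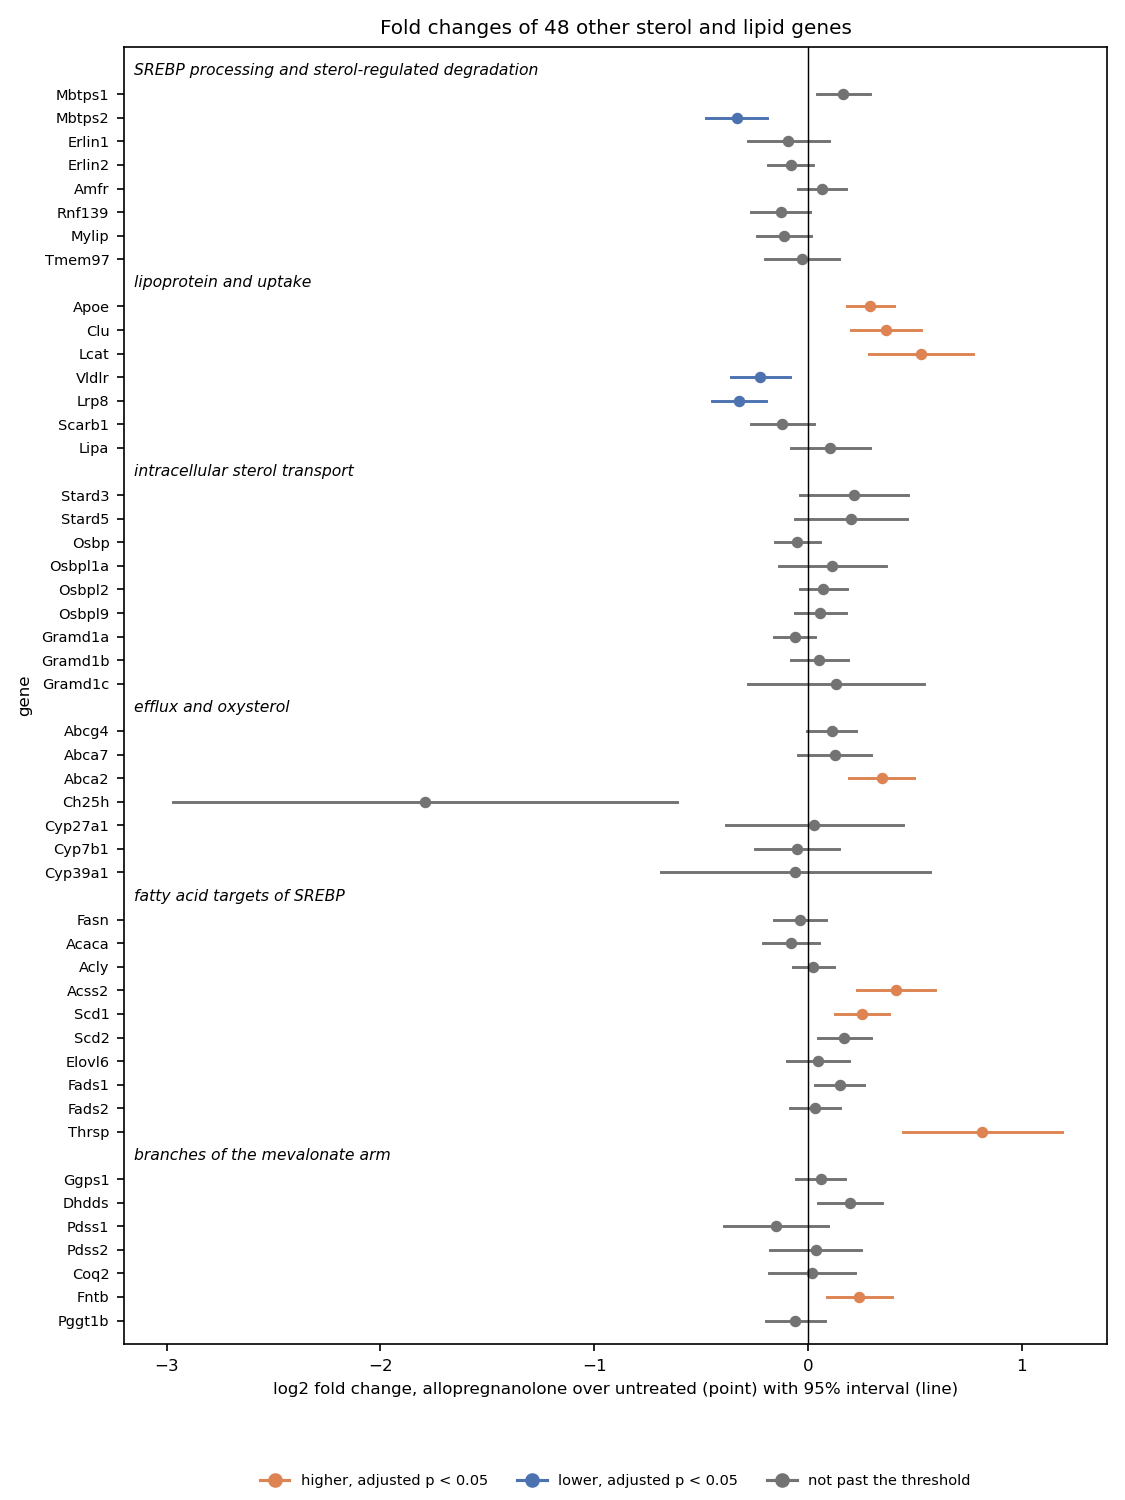
Log2 fold change of 48 further genes of sterol and lipid handling (horizontal axis, allopregnanolone over untreated, 5 libraries each), with 95% intervals as lines. Of these, 8 were higher (orange) and 3 lower (blue), and Ch25h has the widest interval.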

How the data were processed

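The authors deposited a table of estimated counts (expected counts) per gene, with 55471 Ensembl identifiers in 10 libraries. Per the labels' protocols, 1 µg of total RNA was extracted with an RNeasy Mini Plus kit and built into libraries with a NEBNext Ultra II Directional kit. Partek and mm10 are named in the submitters' processing notes. The sources used here give no aligner, counting program, annotation or strand setting. Although the table is titled as normalized, 86.8% to 87.6% of its values above 0 were whole and the library totals differed, so values were rounded and treated as counts. The members and gene lists were chosen with earlier results of these data known. Some genes of the pathway are not reported here.

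Names, coordinates and merged exon lengths were read from GENCODE M21 (GRCm38), where 241 identifiers had no match. Genes with 10 or more counts in at least 5 libraries were kept (17101). TMM factors were 0.953 to 1.04. The test was edgeR 4.0.16 glmQLFTest (R 4.3.3) without covariates. The SE is the log2 fold change over the square root of F, and 95% intervals use the moderated degrees of freedom. Pups were taken as separate animals, and p-values set the difference between the groups against the spread between libraries of a group. Litter and sex were not terms of the test. Libraries of a group differed beyond counting noise (chi-square per degree of freedom 5.45 to 19.8). On simulated counts with 200 changed genes, 6.4% of the calls were unchanged genes. The 21 alternatives included limma 3.58.1 and DESeq2 1.42.0, and the library prefix as a term was added after seeing the data. All members are named, as are the 11 further genes past the threshold. Near-identical copies are matches of at least 95% over 300 bases or more (blastn). Promoter windows are from RefSeq.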

Additional observations from a re-analysis of the deposited data

Results flagged for a closer look

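In 88 sets of 5 libraries (33 members and 11 further named genes, each group apart), 2 held a library far from the others, and about 1 in 20 would do so by chance. Fdft1 was at 93.5 CPM in treated library 8 and at 85.2 to 86.4 CPM in the other treated libraries. Thrsp was at 6.90 CPM in untreated library 5 and at 4.26 to 4.67 CPM in the other untreated libraries, and it passed the threshold with and without that library.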

How the results depend on the processing

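The 6 called members kept their direction in all 21 alternatives, and 22 of the 27 others passed in none. Hmgcs1 and Tm7sf2 passed as lower in 5 alternatives each, and Dhcr7, Lrp1 and Nr1h2 as higher in 1 each. Over all genes, 1926 calls became 105 in the 7 libraries of the shared prefix, 180 with the prefix as a term (added after seeing the data), 244 with the midbrain mean and 0 with the myelin mean as covariate in edgeR's test (846 at an unadjusted p under 0.05), and 1084 to 2343 with 1 library left out. In these 4 fits 0 members were higher and 0 lower, with 7, 8, 9 and 3 members at an unadjusted p under 0.05 (15 without a covariate, and 15 by DESeq2 and by limma-trend). Over all genes the counts at that level were 2660 of 16469, then 3023, 2706 and 846 of 17101. Without a covariate 4700 of 17101 genes were at that level (4676 by DESeq2 and 4697 by limma-trend). Leaving out the prefix leaves 2 untreated libraries, and the myelin mean does not overlap between the groups, so both fits hold less information on the treatment. With 1 library left out, 2 to 6 members were higher and 0 to 2 lower. Without untreated library 1 or 4 or treated library 7, 2 members were higher, and without untreated library 3 or treated library 8 or 9, 3 were. Library totals alone gave 3 higher and 3 lower members. Upper-quartile scaling, a filter of 100 counts and DESeq2 gave 3 lower members each. With library totals 35% of all calls were higher, against 58.7% by TMM. With the myelin mean as covariate Fntb turned to -0.11 on the log2 scale. Causes of these shifts were not tested beyond what is stated. No paired analysis was possible because the groups share no replicate numbers. Of the 33 members Nr1h3, the least abundant, had the largest SE, 0.24.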

Other observations

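Ch25h, the enzyme that makes 25-hydroxycholesterol, had the largest fold change of the sterol genes and did not pass. It was at 3.24, 1.25, 0.792, 0.601 and 0.757 CPM in untreated libraries 1 to 5 and at 0.209, 0.732, 0.546, 0.415 and 0.0959 CPM in treated libraries 6 to 10. The log2 fold change was -1.79 (SE 0.55, edgeR adjusted p = 0.0506). Untreated library 1, the highest, was also the highest in microglial markers, at 360 CPM in sum. Untreated library 4, the lowest of its group for Ch25h, was second in these markers, at 321 CPM. Treated library 7, the highest of its group for Ch25h, had 274 CPM of them, within a treated range of 271 to 291 CPM. Treated library 7 lay above untreated library 4, so the groups overlapped. The enzyme is known to be induced in activated myeloid cells, and a link of its level to these markers was not tested. Of its exons 11.5% lie opposite the noncoding gene Gm26902.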
